A study of Bos indicus x Bos taurus with 11 samples.

Results

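The genes described here are 10 ligand and receptor genes of the platelet-derived growth factor (PDGF) and fibroblast growth factor (FGF) families, chosen by symbol from the 27398 genes of the expression table. The 5 ligand genes are PDGFA, PDGFC, PDGFD, FGF2 and FGF7, and the 5 receptor genes are PDGFRA, PDGFRB, FGFR1, FGFR2 and FGFR3. All 10 were found. Skin fibroblasts of 11 bovine fetuses, taken at day 105 of gestation and grown as primary cultures, each gave 1 RNA library. Every fetus was an F1 hybrid between the Brahman breed (Bos taurus indicus) and the Angus breed (Bos taurus taurus). The 6 fetuses with large offspring syndrome (LOS; 3 females, 3 males) were conceived by assisted reproduction and weighed more than the 97th centile of controls. LOS is a fetal overgrowth condition of cattle. The 5 control fetuses (2 females, 3 males) were conceived by artificial insemination, so LOS and the way of conception cannot be told apart. The labels name no batch, and each fetus is represented by 1 culture grown in medium with fetal bovine serum.

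PDGFs are secreted growth factors that act on cells of mesenchymal origin. They bring together the receptor tyrosine kinases PDGFRA and PDGFRB, which then signal through the RAS to ERK and the phosphoinositide 3-kinase pathways. FGFs bind receptor tyrosine kinases of the FGFR family together with heparan sulfate, a sugar chain on the cell surface and in the matrix, and use the same pathways. In skin, PDGF receptors mark and drive the growth of dermal fibroblasts, while some fibroblast FGFs act on the overlying epithelium.

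Total expected counts, the estimated reads per library over all genes, ran from 12084822 to 19297167 in LOS and from 14147031 to 19272354 in controls. Values are given as CPM, the counts scaled by trimmed means to a common library size. No transcript lengths were used, so levels are compared between libraries and not between genes. The cultures carried fibroblast genes: all 12 fibroblast markers were tested, and their summed level was 61833 to 77662 CPM in LOS and 60348 to 78199 CPM in controls. Markers of other cells ranged widely in level. The 5 leukocyte markers measured summed to 0 to 0.821 CPM in LOS and 0.444 to 1.13 CPM in controls, and the 7 keratinocyte markers to 2.43 to 24.7 CPM in LOS and 3.60 to 11.1 CPM in controls. The 5 endothelial markers summed to 2.72 to 5.02 CPM in LOS and 3.87 to 5.21 CPM in controls, and the 3 muscle markers to 0.211 to 1.23 CPM in LOS and 0.476 to 1.41 CPM in controls. The 4 melanocyte and Schwann cell markers measured, of 8 listed, summed to 57.8 to 138.7 CPM in LOS and 49.6 to 326 CPM in controls. Most of that sum came from MITF, a transcription factor of melanocytes, with means of 67.7 CPM in LOS cultures and 75.2 CPM in control cultures, and from PMEL, a melanosome protein, with means of 27.3 CPM in LOS cultures and 64.4 CPM in control cultures. The highest sum was in control 2. The 10 pericyte and smooth muscle markers summed to 2580 to 6349 CPM in LOS and 1705 to 5752 CPM in controls, with 5 of 8 tested genes higher and 3 lower in LOS. Most of that sum came from ACTA2, the smooth muscle actin that cultured fibroblasts also make, with means of 3501 CPM in LOS cultures and 3355 CPM in control cultures. In bulk libraries, fewer cells of a type and less RNA per cell cannot be told apart.

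None of the PDGF and FGF genes was called changed between LOS and control fibroblasts. Of the 10, 9 passed the filter on low counts, and 0 of them were called by the quasi-likelihood test of edgeR (Benjamini-Hochberg adjustment over 16946 genes), with adjusted p-values between 0.932 and 0.984. That test called 0% of all genes, DESeq2 called 5 genes in all and limma voom 0, none of them among these 10. At an unadjusted p under 0.05, 0 of the 9 passed, against 4.44% of all genes tested (752 genes; 2.48% higher and 1.95% lower in LOS). The LOS and control libraries overlapped in every one of the 10 genes. Among all genes tested, 0.136% lay wholly lower and 0.0944% wholly higher in LOS. Log2 fold changes (LOS minus control) were above 0 in 3 of 5 ligands and in 1 of 4 tested receptors, while 49.8% of all genes tested were above 0 and 50.2% below. The median was 0.05 over the ligands, -0.26 over the receptors and -0.00070 over all genes tested.

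**Figure D1:**
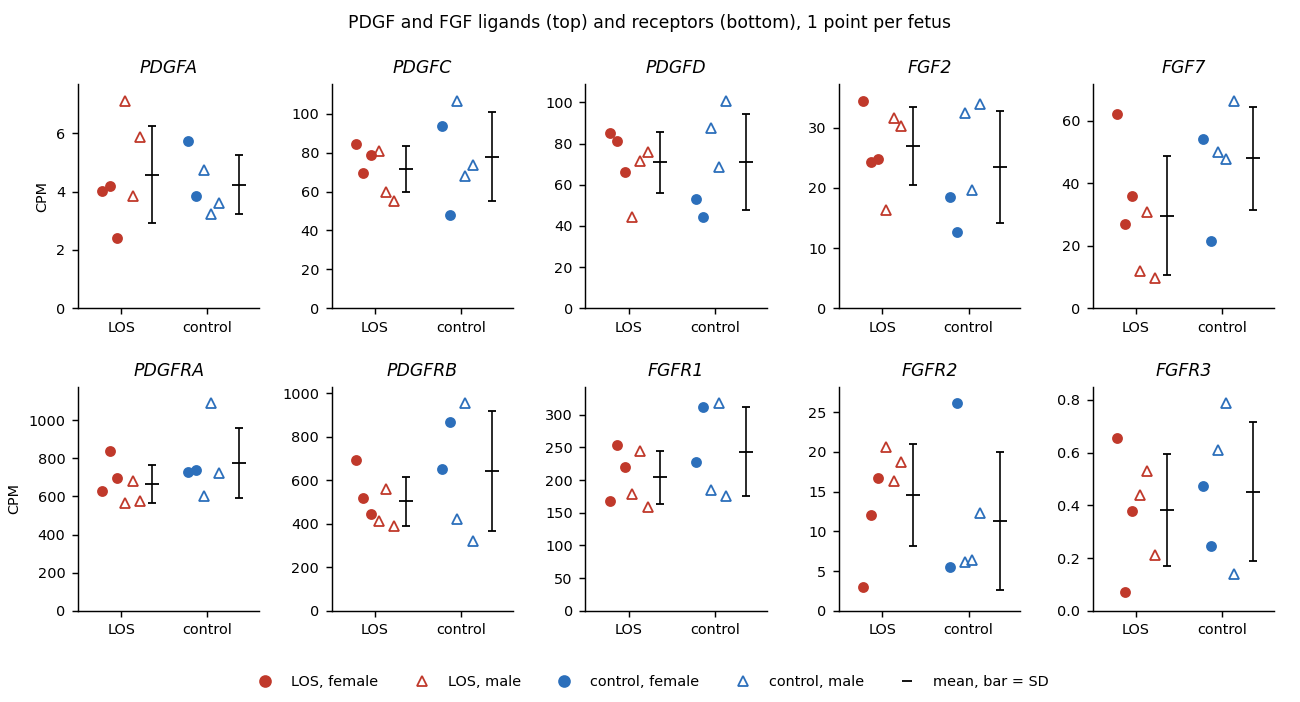
Level of each ligand (top) and receptor (bottom) in CPM on the vertical axis, 1 point per fetus, LOS left of control in each panel; filled circles are females, open triangles males, and the bar is the mean with its SD. LOS and control points overlap in all 10 panels.

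PDGFA (gene ID 505908, chr25:42012070-42031485, plus strand, build ARS-UCD1.2, as for all positions here) encodes the chain of PDGF-AA, which binds PDGFRA. It had 32 to 111 counts per library. Its level was 4.02, 4.21, 2.41, 7.12, 3.85 and 5.87 CPM in LOS libraries 1 to 6, against 5.74, 3.85, 4.76, 3.25 and 3.60 CPM in control libraries 1 to 5. The highest library, LOS 4, and the lowest, LOS 3, were both LOS, and the controls lay between them. Its log2 fold change was 0.11 ± 0.26 (SE), with a 95% interval from 0.720-fold to 1.61-fold. It was -0.05 without LOS 4 and -0.01 without control 4, and 0.31 without control 1.

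PDGFC (gene ID 613787, chr17:42226263-42479695, plus strand) encodes a PDGF that is secreted in a latent form, binds PDGFRA once a protease has removed its amino-terminal domain, and is made by mesenchyme and epithelium. Its level was 84.5, 69.4, 78.9, 81.0, 59.9 and 55.2 CPM in LOS libraries 1 to 6, against 93.8, 47.7, 107, 67.8 and 73.4 CPM in control libraries 1 to 5. Control 3 was the highest and control 2 the lowest library, so the LOS range lay inside that of the controls. The log2 fold change was -0.13 ± 0.20 (0.674-fold to 1.24-fold), and 0.01 without control 3.

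PDGFD (gene ID 525931, chr15:4259431-4536080, plus strand) encodes the other latent PDGF, whose active form binds mainly PDGFRB. Its level was 85.3, 81.4, 65.95, 44.5, 71.6 and 76.1 CPM in LOS libraries 1 to 6, against 53.2, 44.5, 87.4, 68.4 and 101 CPM in control libraries 1 to 5. The group means were 70.8 ± 14.6 CPM in LOS cultures (SD, n = 6), against 70.8 ± 23.3 CPM in control cultures (SD, n = 5). The 2 lowest controls were the females, controls 1 and 2. The log2 fold change was 0.05 ± 0.23 (0.732-fold to 1.47-fold), and it turned to -0.05 without control 1, -0.12 without control 2 and -0.02 without LOS 1. The assembled locus MSTRG.12575, on the same strand, covers 22% of the span of PDGFD and had 1 to 7 counts per library.

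Both PDGF receptor genes were deeply covered in all 11 libraries. PDGFRA (gene ID 282301, chr6:69723778-69771549, plus strand), the receptor for PDGF-A and PDGF-C and a widely used marker of dermal fibroblasts, had 7676 to 22134 counts. Its level was 630, 838, 695, 567, 679 and 574 CPM in LOS libraries 1 to 6, against 729, 738, 602, 1088 and 724 CPM in control libraries 1 to 5. Control 4 stood above all other libraries, and 5 of the 6 LOS libraries lay below the control median. LOS minus control came to -0.24 ± 0.16 on the log2 scale (0.664-fold to 1.08-fold), and -0.07 without control 4.

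PDGFRB (gene ID 527165, chr7:61473641-61511258, minus strand), the receptor for PDGF-B and PDGF-D that is also prominent in pericytes, varied more than PDGFRA. Its level was 694, 516, 446, 412, 559 and 388 CPM in LOS libraries 1 to 6, against 650, 868, 422, 954 and 320 CPM in control libraries 1 to 5. The controls held both the highest library, control 4, and the lowest, control 5. The difference was -0.38 ± 0.26 on the log2 scale (0.518-fold to 1.14-fold), and -0.09 without control 4.

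FGF2 (gene ID 281161, chr17:34801330-34860849, minus strand) encodes basic FGF, a strong mitogen of fibroblasts that leaves cells without a signal peptide and is held by heparan sulfate. Its level was 34.5, 24.4, 24.9, 16.3, 31.6 and 30.2 CPM in LOS libraries 1 to 6, against 18.4, 12.7, 32.4, 19.7 and 33.9 CPM in control libraries 1 to 5. Both groups held high and low libraries, and 5 of the 6 LOS libraries lay above the control median. For FGF2 the log2 fold change was 0.29 ± 0.26 (0.818-fold to 1.82-fold), 0.09 without control 2 and 0.47 without LOS 4. NUDT6, a gene on the opposite strand, overlaps 40.5% of the span of FGF2, and had 91 to 297 counts per library. The use of strand in counting was not given in the sources used here. Reads of FGF2 and NUDT6 may not be told apart in their shared stretch.

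FGF7 (gene ID 616885, chr10:60792440-60854453, minus strand) encodes keratinocyte growth factor, made by dermal fibroblasts and received by the epithelium. Its level was 62.1, 26.9, 35.95, 11.96, 30.9 and 9.67 CPM in LOS libraries 1 to 6, against 54.2, 21.4, 49.9, 47.8 and 66.4 CPM in control libraries 1 to 5. All LOS libraries but LOS 1 lay below all controls but control 2. The means were 29.6 ± 19.1 CPM in LOS cultures (SD, n = 6), against 47.9 ± 16.5 CPM in control cultures (SD, n = 5). Of the 9 genes, FGF7 had the smallest p, with a log2 fold change of -0.88 ± 0.46 (edgeR adjusted p = 0.932), and its 95% interval ran from 0.269-fold to 1.10-fold. An unannotated locus assembled by the authors on the same strand, MSTRG.9282, covers 84.9% of the span of FGF7 and averaged 3.79 CPM in LOS cultures, against 7.62 CPM in control cultures. Reads of FGF7 and of this locus may not be told apart in their shared stretch, so the locus is not a separate measure. FAM227B, on the opposite strand, spans all of FGF7 and had 0 to 2 counts per library.

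FGFR1 (gene ID 281768, chr27:33548426-33598542, minus strand) encodes an FGF receptor of mesenchymal cells that binds FGF2. Its level was 168, 254, 219, 179, 245 and 159 CPM in LOS libraries 1 to 6, against 228, 312, 185, 318 and 176 CPM in control libraries 1 to 5. Controls 2 and 4 were the highest libraries, and the other 3 controls lay among the LOS libraries. On the log2 scale the difference was -0.27 ± 0.19 (0.621-fold to 1.11-fold), and -0.12 without control 4.

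FGFR2 (gene ID 404193, chr26:41450677-41558088, minus strand) encodes the receptor whose epithelial splice form binds FGF7. Counts per gene do not separate its splice forms. Its level was 2.95, 12.05, 16.7, 20.6, 16.4 and 18.8 CPM in LOS libraries 1 to 6, against 5.54, 26.1, 6.18, 6.39 and 12.3 CPM in control libraries 1 to 5. LOS 1 was the lowest library and control 2 the highest. The other 5 LOS libraries lay at or above 12.05 CPM, and the other 4 controls at or below 12.3 CPM. This gave a log2 fold change of 0.36 ± 0.52 (0.582-fold to 2.84-fold), 1.09 without control 2 and 0.17 without control 3.

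FGFR3 (gene ID 281769, chr6:116766308-116781176, minus strand), best known for restraining bone growth, was near the limit of detection, with 1 to 16 counts per library. It did not pass the filter on low counts and was not tested. It averaged 0.381 ± 0.212 CPM in LOS cultures (SD, n = 6), against 0.452 ± 0.263 CPM in control cultures (SD, n = 5).

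FGFR2 and FGF7 varied most between the fetuses. The SD of log2 CPM over the 11 libraries was 0.96 for FGFR2 and 0.93 for FGF7, above 93.7% and 93.1% of all genes tested, whose median SD was 0.31. PDGFRB followed with 0.50 and FGF2 with 0.48. PDGFRA varied least, with 0.27, below the median of all genes tested. Between its lowest and its highest library, FGFR2 spanned 3.09 log2 units and FGF7 2.76, against 0.94 for PDGFRA. With sex and group in the model, the remaining SD was 1.03 for FGFR2 and 0.87 for FGF7.

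Male and female fetuses did not differ past the test in any ligand or receptor. Of the 9 tested genes 0 were called by edgeR, against 8 genes or 0.0472% of all genes tested. At an unadjusted p under 0.05, 0 of the 9 passed, against 3.3% of all genes. The widest differences over all libraries were in FGF7, at 36.1 ± 22.6 CPM (SD, n = 6) in males and 40.1 ± 17.5 CPM (SD, n = 5) in females (log2 male minus female -0.48 ± 0.46), and in PDGFRB, at 509 ± 231 CPM in males and 635 ± 164 CPM in females (-0.35 ± 0.26). The adjusted p was 0.999 for both. Single libraries moved these differences by over 1.5 times: that of FGF7 was -0.86 without control 2, -0.18 without LOS 1, -0.24 without LOS 4 and -0.20 without LOS 6, and that of PDGFRB was -0.58 without control 4 and -0.23 without control 5.

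The difference between LOS and control was also taken within each sex, and FGF7 and FGFR2 lay apart in males. Both sexes came from a single fit to all libraries, so their errors share an estimate of spread. Male LOS libraries had 11.96, 30.9 and 9.67 CPM of FGF7, against 49.9, 47.8 and 66.4 CPM in male controls. All 3 LOS males thus lay below all 3 control males (log2 fold change -1.65 ± 0.49, edgeR adjusted p = 0.821). FGFR2 ran the other way: male LOS libraries had 20.6, 16.4 and 18.8 CPM, against 6.18, 6.39 and 12.3 CPM in male controls, with a log2 fold change of 1.17 ± 0.62 (edgeR adjusted p = 0.821). Among females FGF7 averaged 41.7 CPM in LOS cultures, against 37.8 CPM in control cultures (0.14 ± 0.54), and FGFR2 10.6 CPM in LOS cultures and 15.8 CPM in control cultures (-0.59 ± 0.68). With 3 fetuses against 3, separate groups are common: 6.01% of all genes tested lay wholly lower and 6.97% wholly higher in male LOS. Of the 10 genes, 1 lay wholly lower and 1 wholly higher there.

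In females, FGF2 and PDGFD lay apart. Female LOS libraries had 34.5, 24.4 and 24.9 CPM of FGF2, against 18.4 and 12.7 CPM in female controls (log2 fold change 0.84 ± 0.34, edgeR adjusted p = 0.999). For PDGFD they had 85.3, 81.4 and 65.95 CPM, against 53.2 and 44.5 CPM in female controls (0.67 ± 0.25, edgeR adjusted p = 0.999). Across all genes tested, 8.88% lay wholly lower and 8.64% wholly higher in female LOS. In males the log2 fold change was -0.14 ± 0.29 for FGF2 and -0.41 ± 0.21 for PDGFD, with overlapping groups.

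Tested directly, the difference between the sexes was not called for any of the 9 genes. The group by sex interaction (log2 fold change in males minus that in females) was -1.08 ± 0.33 for PDGFD, -1.79 ± 0.73 for FGF7 and -0.98 ± 0.44 for FGF2, each with an edgeR adjusted p of 0.921. It was 0.97 ± 0.46 for PDGFA and 1.76 ± 0.92 for FGFR2, the last of which became 0.23 without control 2. edgeR called 0 of 17583 genes (0%) for this term and DESeq2 6, none of them a gene described here. PDGFD and FGF7 were the 2 of the 9 genes with an unadjusted p under 0.05, which 4.95% of all genes tested had.

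**Figure D2:**
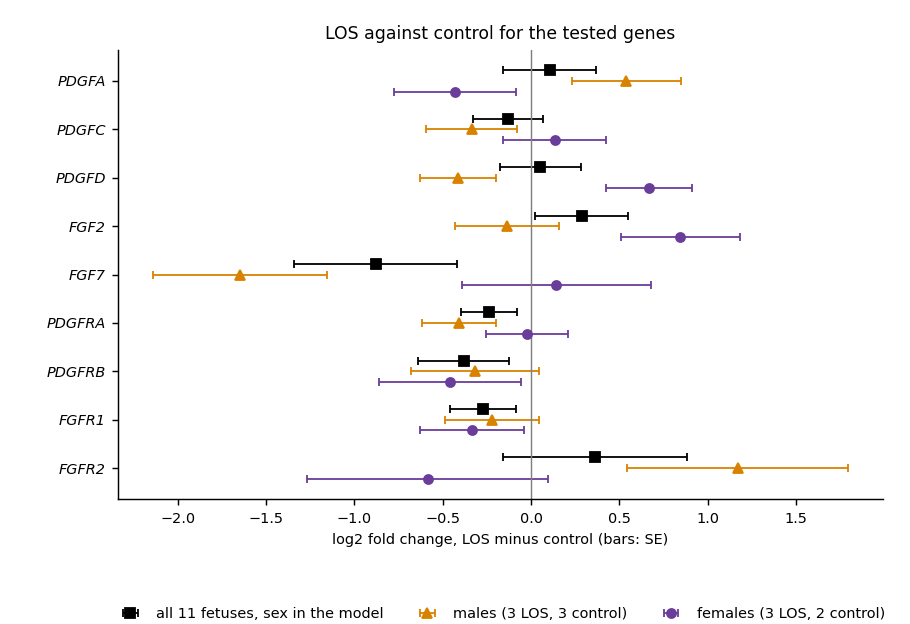
Log2 fold change of LOS minus control on the horizontal axis for the 9 tested genes, with the SE as the bar. Squares are the fit over all 11 fetuses with sex in the model. Triangles are males and circles females, both from another fit to all 11 fetuses. FGF7 sits at -1.65 in males and 0.14 in females, and PDGFD at -0.41 in males and 0.67 in females.

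FGF7 and FGFR2 levels ran opposite to each other across the fetuses. LOS 1 had the lowest FGFR2 (2.95 CPM) with 62.1 CPM of FGF7, while LOS 6 and LOS 4 had the lowest FGF7 (9.67 and 11.96 CPM) with 18.8 and 20.6 CPM of FGFR2. Over the 11 libraries, Pearson's r of log2 CPM was -0.73 (permutation p = 0.0113, 0.0678 after Benjamini-Hochberg adjustment over 6 pairs) and Spearman's rho was -0.77 (permutation p = 0.00751, adjusted p = 0.0451). Pearson's r missed the threshold of 0.05, and Spearman's rho passed it with adjustment over these 6 pairs only. The permutations ignored group and sex, although LOS and control males lay apart in both genes, in opposite directions. Without LOS 4 and LOS 6, the libraries farthest from the median of FGF7, r was -0.76, and within the 6 LOS libraries it was -0.75 (exact permutation p = 0.0458), where Spearman's rho was -0.71 (exact permutation p = 0.136). Without control 5, r was -0.81 and passed (permutation, adjusted p = 0.0297). The 5 controls are too few for a value of their own. The 11 libraries share the scaling to CPM. Other genes ran opposite over the same libraries. MAF, picked below for its likeness to FGFR2, had 38.7 CPM in LOS 1 and 297 CPM in LOS 6. BNC2, picked for its likeness to FGF7, had 168 CPM in LOS 1 and 20.9 CPM in LOS 6. Both were picked by likeness over these same libraries, so their opposition follows from that choice. How common such a correlation is among all genes was not tested.

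The other 5 pairs did not pass by either measure over all 11 libraries. PDGFRA and PDGFRB had r = 0.60 (permutation p = 0.0447, adjusted p = 0.103) and rho = 0.60 (adjusted p = 0.0989). That relation rested on the extreme libraries, since r was 0.26 without control 4 and LOS 4 and 0.35 within LOS, while it was 0.72 without control 5 (permutation, adjusted p = 0.0406). FGF2 and its receptor gene FGFR1 had r = -0.60 (permutation p = 0.0516, adjusted p = 0.103) and rho = -0.58 (adjusted p = 0.0989). Its r was -0.79 without LOS 4 (permutation, adjusted p = 0.0329) and -0.04 within LOS. For PDGFA and PDGFRA r was -0.52 (permutation p = 0.0986, adjusted p = 0.148) and rho -0.59. PDGFD and PDGFRB had r = -0.40 (permutation p = 0.221) and rho = -0.35, and PDGFC and PDGFRA r = -0.20 (permutation p = 0.560) and rho = -0.30.

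**Figure D3:**
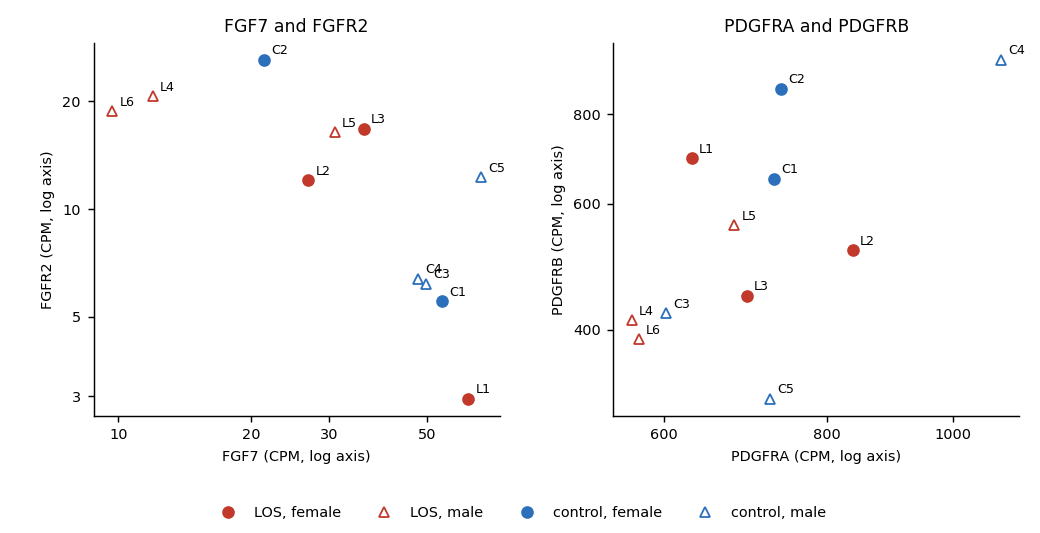
Levels in CPM of FGF7 (horizontal) against FGFR2 (vertical), left, and of PDGFRA (horizontal) against PDGFRB (vertical), right, on log axes, 1 point per fetus, with L for LOS and C for control before the library number. FGF7 and FGFR2 fall along a descending line (r = -0.73), and PDGFRA and PDGFRB along a rising line that depends on C4 and L4 (r = 0.26 without them).

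For the 3 most variable genes, the genes whose centred log2 CPM lay nearest over the 11 libraries were sought among 10968 genes. Nearest to FGFR2 was MAF, a transcription factor gene, at a mean distance of 0.33 log2 units, followed by the assembled locus MSTRG.2840 (0.36) and BCL11B, a zinc finger transcription factor gene (0.36). A flat profile would lie 0.80 from FGFR2. Nearest to FGF7 were ENPP5, a gene of the ectonucleotide pyrophosphatase/phosphodiesterase family, BNC2, a zinc finger gene of mesenchyme, and ADAMTS5, an aggrecan-cleaving protease gene, each at 0.21, against 0.74 for a flat profile. Nearest to PDGFRB were FIGNL2 (0.15), the assembled locus MSTRG.8490 (0.17) and RHOBTB2 (0.18), against 0.41. These genes were picked for their likeness, and the distances are a description.

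**Figure D4:**
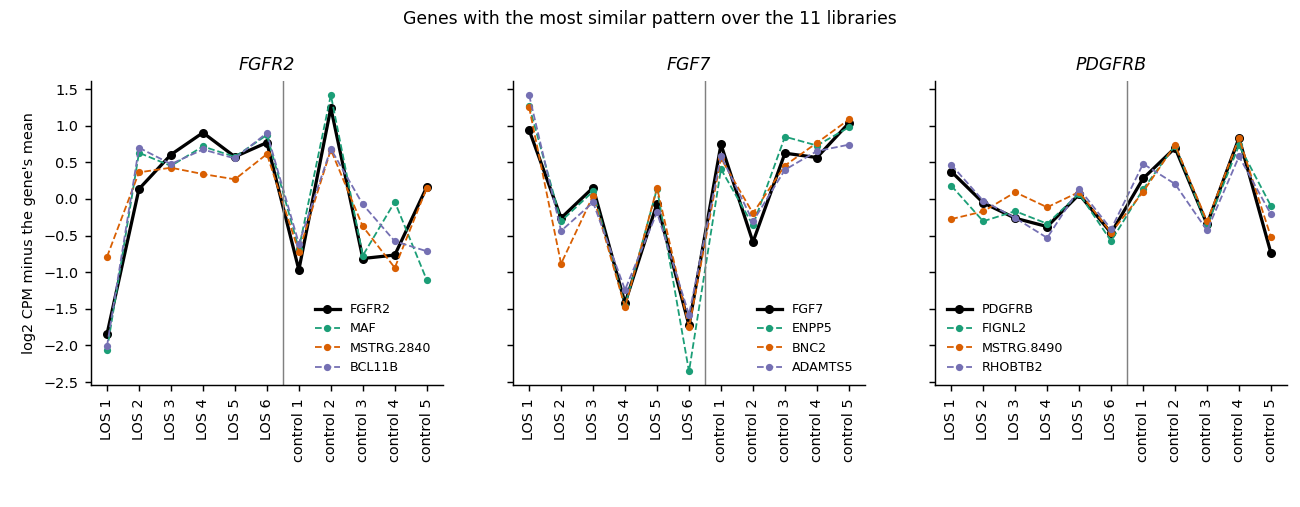
Log2 CPM minus the gene's mean over the 11 libraries (vertical) in each library (horizontal, LOS left of control) for FGFR2, FGF7 and PDGFRB in black and for the 3 genes nearest to each in colour. LOS 1 is the lowest library for FGFR2, and LOS 4 and LOS 6 are the lowest for FGF7.

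Because the fetuses are hybrids of distinct cattle types, reads that cover sites differing between the parents were assigned by the authors to the maternal or the paternal allele. The table of such reads holds 6 of the 10 genes among 9716. PDGFRA, PDGFRB, FGF7 and FGFR3 have no value in it. PDGFA had reads in 2 LOS libraries only (5 and 11 reads) and was not tested. PDGFC, PDGFD, FGF2, FGFR1 and FGFR2 met the minimum of 20 reads on average per library, and of 10 reads in 3 libraries of each group. The labels do not say which breed was the mother, so parent of origin and breed cannot be told apart. Intervals of a single share are 95% Clopper-Pearson intervals, which cover counting error only.

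PDGFD was read less from its maternal than from its paternal allele. The maternal share of its allelic reads was 45.2, 38.0, 41.3, 41.5, 37.9 and 40.7% in LOS libraries 1 to 6, and 38.1, 44.3, 41.8, 48.6 and 45.1% in control libraries 1 to 5. All 11 libraries lay below 50%, and in 10 of them the interval excluded 50%, control 4 being the exception (46.0 to 51.1%, 1503 reads). Each share rests on 441 to 1673 reads. Over all libraries the maternal allele was lower by a log2 ratio of -0.46 ± 0.06 (edgeR quasi-likelihood, adjusted p = 4.715e-06 over 5700 genes). That test called 20.5% of all genes, 10.2% higher from the maternal and 10.3% higher from the paternal allele, and the ratio of PDGFD was larger in size than that of 90.8% of them. Of 4274 genes with reads in all 11 libraries, 7.42% lay on the same side of 50% in every library. Allelic reads of PDGFD came to 48.1 to 117 per 100 expected counts, so these reads are not a subset of the expected counts.

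PDGFC was read slightly more from its maternal allele. Its maternal share was 44.3, 52.9, 58.0, 52.0, 56.0 and 55.8% in LOS libraries 1 to 6, and 53.8, 52.7, 53.7, 54.8 and 52.4% in control libraries 1 to 5. LOS 1 was the only library below 50% (interval 40.5 to 48.2%). The log2 ratio of 0.19 ± 0.06 passed the test (edgeR adjusted p = 0.0341), but in 6 of 11 fits that left out 1 library it no longer did. Those were the fits without LOS 3, 5 or 6 or control 1, 3 or 4, with adjusted p-values from 0.0594 to 0.0871. Without LOS 1 the ratio was 0.25 (edgeR adjusted p = 0.00314).

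FGFR2, FGFR1 and FGF2 did not pass the comparison of alleles. FGFR2 had 6 to 506 allelic reads and a log2 ratio of -0.35 ± 0.13 (edgeR adjusted p = 0.0592), with 9 of 11 libraries below 50%. It passed without LOS 2 (-0.41, edgeR adjusted p = 0.0257) and without control 4 (-0.37, edgeR adjusted p = 0.0454). FGFR1 had a log2 ratio of -0.11 ± 0.07 (edgeR adjusted p = 0.264) and FGF2 of 0.14 ± 0.10 (edgeR adjusted p = 0.369).

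In FGF2 the maternal share was lower in LOS than in controls by single values, but not after adjustment over all genes. It was 49.3, 40, 54.8, 49.3, 45.2 and 51.3% in LOS libraries 1 to 6, against 57.4, 58, 60, 54 and 58.6% in control libraries 1 to 5. Only LOS 3 and control 4 overlapped. The shares averaged 48.3 ± 5.13% (SD, n = 6) in LOS and 57.6 ± 2.24% (SD, n = 5) in controls, a difference of -9.29 percentage points (exact permutation p = 0.00649, two-sided). Leaving out 1 library in turn gave differences of -10.6 to -7.63 points (exact permutation p from 0.00794 to 0.0238). In the edgeR fit the log2 ratio of maternal to paternal reads was lower in LOS by -0.51 ± 0.18 (edgeR adjusted p = 0.9995). That fit called 0 of 5700 genes (0%). FGF2 was among the 246 genes, or 4.32%, with an unadjusted p under 0.05. limma voom also called 0.

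The shares of FGF2 rest on 68 to 374 reads per library, and the interval excluded 50% in 1 library, control 5. The difference was -8.95 points in males and -9.65 points in females. The two-sided exact permutation p was 0.1 in males, the smallest that 3 libraries against 3 can give, and 0.2 in females, where 3 against 2 can give 0.1. Level by allele came from the table in which the authors scaled expected counts by the allelic share. For the maternal allele of FGF2 it was 13.03 ± 3.44 CPM in LOS cultures, against 13.6 ± 5.70 CPM in control cultures. For the paternal allele it was 13.9 ± 3.58 CPM in LOS cultures, against 9.84 ± 3.61 CPM in control cultures (SD, n = 6 and 5). The overlapping opposite-strand gene NUDT6 had a maternal share of 49.3 ± 3.50% in LOS and 46.6 ± 2.92% in controls (exact permutation p = 0.208). The part of NUDT6 reads in the result for FGF2 was not tested.

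The other 4 genes showed no difference in share past a test. The difference in maternal share between LOS and controls was -0.284 points for PDGFC (exact permutation p = 0.931), -2.82 points for PDGFD (exact permutation p = 0.162), -3.89 points for FGFR1 (exact permutation p = 0.128) and -6.84 points for FGFR2 (exact permutation p = 0.288). The LOS shares of PDGFC enclosed those of all controls, and in the other 3 genes the ranges overlapped in part.

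**Figure D5:**
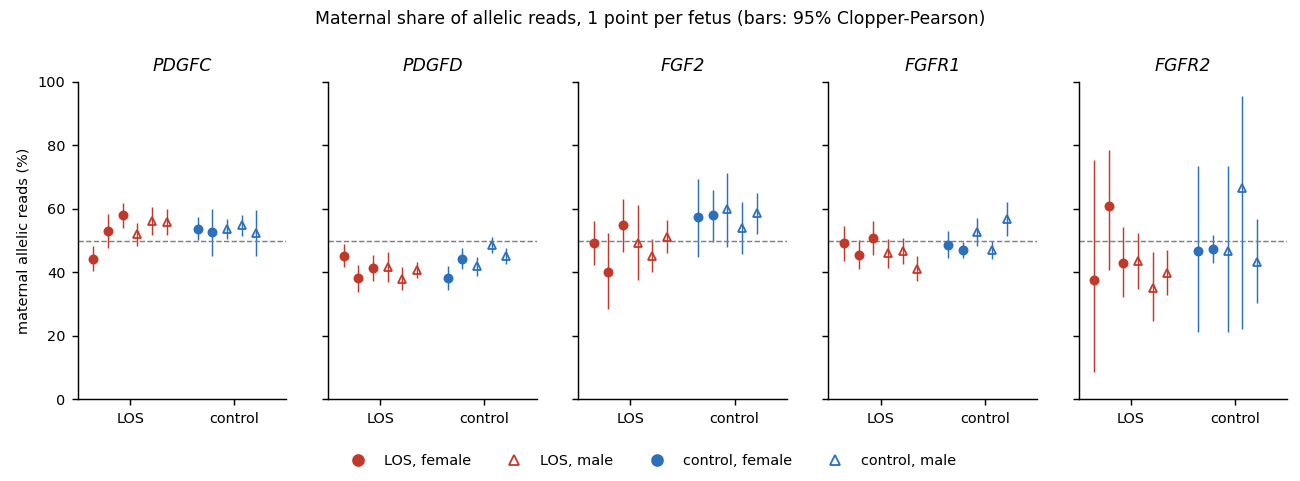
Maternal share of allelic reads in percent (vertical) for the 5 tested genes, 1 point per fetus, LOS left of control in each panel, with 95% Clopper-Pearson intervals as bars and a dashed line at 50%. All 11 points of PDGFD lie below 50%, and in FGF2 the LOS points average 48.3% and the control points 57.6%.

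Among the remaining ligands of these families, few were expressed. Of 21 listed, 14 were in the table and 4 had enough counts to test, with 0 called, 1 higher and 3 lower in LOS. FGF10, a mesenchymal ligand of the epithelial form of FGFR2, averaged 5.32 ± 1.804 CPM in LOS cultures (SD, n = 6), against 7.49 ± 3.79 CPM in control cultures (SD, n = 5). All 6 LOS libraries lay below the control median (log2 fold change -0.40 ± 0.42). FGF9 averaged 0.492 CPM in LOS cultures, against 0.873 CPM in control cultures, with 1 to 22 counts per library (-1.07 ± 0.39). FGF19 averaged 8.53 CPM in LOS cultures, against 4.72 CPM in control cultures (0.99 ± 0.44). All 6 of its LOS libraries lay above the control median. The edgeR adjusted p was 0.932 for FGF9 and for FGF19.

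Of the 9 other receptors and co-receptors, 5 were tested, 1 higher and 4 lower in LOS, with 0 called. FGFR4 stayed at 0 to 9 counts. FGFRL1, a receptor-like gene without a kinase domain, averaged 1.88 CPM in LOS cultures, against 1.201 CPM in control cultures (0.65 ± 0.42), and NRP2, a co-receptor gene, 66.9 CPM in LOS cultures and 87.0 CPM in control cultures (-0.37 ± 0.23). Of the genes that release, activate or trap the ligands, 9 were tested, with 5 higher and 4 lower and 0 called. PLAU, the urokinase gene, whose product can activate PDGF-D, averaged 31.9 CPM in LOS cultures, against 25.3 CPM in control cultures (0.33 ± 0.18).

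Downstream, 0 genes were called in any list. Of 30 adaptors and effectors 19 were higher and 11 lower in LOS (median log2 fold change 0.05), of 18 feedback inhibitors 7 were higher and 11 lower (-0.08), and of 20 transcriptional targets 13 were higher and 7 lower (0.13). EGR1, an immediate early transcription factor gene that ERK signalling induces, averaged 940 ± 358 CPM in LOS cultures (SD, n = 6), against 566 ± 99.9 CPM in control cultures (SD, n = 5). All 6 LOS libraries lay above the control median (0.71 ± 0.24, edgeR adjusted p = 0.932). DUSP6, an ERK phosphatase gene that ERK signalling induces, averaged 39.5 CPM in LOS cultures, against 38.0 CPM in control cultures (0.06 ± 0.13). The feedback inhibitor CBLB averaged 343 CPM in LOS cultures, against 240 CPM in control cultures (0.57 ± 0.22). The effector PIK3CA averaged 136 CPM in LOS cultures, against 111 CPM in control cultures (0.30 ± 0.12). In both, all 6 LOS libraries lay above the control median. In PTPRJ, another feedback inhibitor, all 6 lay below it (-0.18 ± 0.10). The edgeR adjusted p was 0.932 for CBLB, PIK3CA and PTPRJ. Of 20 tested heparan sulfate and proteoglycan genes, 11 were higher and 9 lower (0.02). The smallest p-values there were those of HS6ST1, a heparan sulfate sulfotransferase gene (-0.44 ± 0.12), and AGRN, the agrin gene (1.39 ± 0.39), with an edgeR adjusted p of 0.932 for both.

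Proliferation markers were also measured beside these genes. All 12 proliferation markers were lower in LOS (median log2 fold change -0.45, 0 called), with sums of 139 to 450 CPM in LOS and 179 to 366 CPM in controls. The part of the proliferation and cell type markers in the levels of the ligands and receptors was not tested.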

How the data were processed

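The authors deposited expected counts (estimated reads per gene, not normalised) for 11 libraries, read counts per parental allele, and expected counts multiplied by the allelic share. Per the labels' protocols, ribosomal RNA was removed from total RNA and libraries were read as 150 bp pairs. Tools named in the submitters' processing notes are Cufflinks 2.2.1, FastQC 0.11.7, GATK, HISAT2 2.1.0, Picard 2.22.4, Salmon 0.11.1, SAMtools 1.8, StringTie 2.1.4 and edgeR 3.36.0, with build ARS-UCD1.2. What each tool did, how reads were counted, also over near-identical copies, whether strand was used, and how heterozygous sites were found was not given in the sources used here.

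Expected counts were rounded and tested in R 4.3.3 with edgeR 4.0.16: factors from trimmed means of M values, filterByExpr, and a quasi-likelihood fit of sex plus group, adjusted by Benjamini-Hochberg over all genes at 0.05. The allelic model had a term per library, the allele, and allele by group, over autosomal genes. Shares were compared with exact permutation tests over libraries, and correlations used 100000 permutations of log2 CPM with 0.5 added to each count. Alternatives were DESeq2 1.42.0, limma voom (limma 3.58.1), other scaling, filters and coverage minimums, no sex term, no assembled loci, leaving out each library in turn, and a replicate block. The code was tested on simulated data.

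The 10 genes and the other gene lists were chosen with earlier results of these data known. Besides the 10, genes are named by rule: up to 3 per list by smallest p, and the 3 nearest in pattern to the 3 most variable genes. FGFR4, DUSP6, MITF, PMEL and ACTA2, and the genes overlapping FGF2, FGF7 and PDGFD, were named after their values were seen. Each fetus is a separate animal, and 0 columns of per-sample values were left unmapped. Sequences of the genes were not used here.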

Additional observations from a re-analysis of the deposited data

Results flagged for a closer look

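PDGFRA in control 4 stood at 1088 CPM, apart from the other 4 controls at 602 to 738 CPM, by a gap of 0.721 of the group's range where 0.710 is the 95% limit for 5 samples. Control 4 was also the highest library for PDGFRB and FGFR1. The maternal share of FGFR2 stood apart in LOS 2, at 60.71% of 28 reads with a 95% interval from 40.6 to 78.5%, and in control 4, at 66.67% of 6 reads with an interval from 22.3 to 95.7%. Both rest on few reads. These are 3 of 30 groups of samples examined, and chance sets apart about 1 in 20.

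PDGFA, PDGFD and FGF2 ran in opposite directions in the sexes: every LOS library of one sex lay above, and every LOS library of the other below, the median of the controls of that sex. The log2 fold change in males minus that in females was 0.971 for PDGFA, -1.082 for PDGFD and -0.98 for FGF2. In edgeR's test of this interaction the adjusted p was 0.921 for all 3, and PDGFD alone of them had an unadjusted p under 0.05.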

How the results depend on the processing

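None of the 9 tested genes was called between LOS and control, between the sexes or for their interaction under any alternative run, although counts over all genes moved. DESeq2 called 5 genes for LOS against control, 6 for the interaction and 22 for sex, and the replicate block 2 for sex. Log2 fold changes near 0 changed sign: PDGFC was 0.089 with the replicate block for LOS against control and 0.53 for sex, FGFR2 was -1.39 with the block for sex, and PDGFD was -0.0018 for LOS against control with no sex term. The replicate numbers gave no clear pairing of the fetuses: correlations of same-numbered libraries were -0.166 to 0.257, and 2 of 5 exceeded 0.1. Those of differently numbered libraries ran from -0.376 (LOS 1 with control 2) to 0.167 (LOS 4 with control 3). So few pairs cannot settle whether the numbers pair the fetuses. Replicate 3 alone joins a female (LOS 3) and a male (control 3), so with the block every sex value rests on that pair. FGFR2 stood at 16.7 CPM in LOS 3 and 6.18 CPM in control 3, and PDGFC at 78.9 CPM and 107 CPM. The cause of the other changes was not tested. In all other settings besides leaving out a library, 178 values kept their direction and their side of the threshold.

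Leaving out 1 library in turn called 0 to 0 genes for LOS against control, 0 to 0 for the interaction, 3 to 7 for sex (8 with all libraries), 0 to 1 for the allelic share, 1028 to 1109 for maternal against paternal (1167 with all libraries) and 0 to 2 of the 6 pairs. For the pairs, leaving out 1 library was a setting chosen after seeing the data. Ranges that crossed 0 for LOS against control were -0.045 to 0.31 for PDGFA, -0.32 to 0.0103 for PDGFC and -0.12 to 0.23 for PDGFD. For sex they were -0.31 to 0.74 for FGFR2, -0.23 to 0.0707 for PDGFC and -0.21 to 0.0023 for PDGFRA. For the interaction they were -0.13 to 0.44 for FGFR1 and -0.14 to 0.74 for PDGFRB, and for the share of PDGFC -0.0877 to 0.0774. Levels per transcript length were not run. FGFR3, with 1 to 16 counts, and the FGFR2 shares, with 6 to 506 reads, are limited by depth.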
